A study of Mus musculus with 15 samples.

Results

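The SoxC, SoxD and SoxE genes code for transcription factors that bind DNA through an HMG box, a short domain that bends the double helix. The 8 genes examined were Sox4 and Sox11 of the SoxC subfamily, Sox5, Sox6 and Sox13 of SoxD, and Sox8, Sox9 and Sox10 of SoxE. They were chosen by name, and each listed H3K27ac peak was taken that overlapped by at least 1 bp the RefSeq gene record of a member on mm10 or the 100 kb on either side of it. A peak within 2 kb of a curated start site was called a promoter peak, another peak inside the gene record a gene-body peak, and the rest flank peaks. By this rule 218 peaks of 122375 in the list lay around the 8 genes, of 21000 protein-coding genes treated in the same way.

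SoxC proteins are strong activators found in progenitor cells of many lineages. SoxD proteins have no activation domain of their own and act beside other factors, and SOX5 and SOX6 work with SOX9 in cartilage, while SOX6 also represses slow-fiber genes in skeletal muscle. SoxE proteins act in cartilage, neural crest and glia, and SOX8 has been found in muscle satellite cells.

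The tumors were mouse fusion-positive rhabdomyosarcomas (FP-RMS), a soft tissue tumor of muscle character. The series held 15 CUT&RUN libraries, of which 6 H3K27ac libraries and 3 IgG libraries came from MCP tumors and 3 of each kind from TCP tumors. MCP mice carry Myf6-Cre together with Cdkn2a(Flox/Flox), with R26-tdTom and with Pax(3P3F/P3F), the label for PAX3-FOXO1 (P3F) knocked into both copies of Pax3. In MCP mice the Cre comes from the Myf6 locus of myogenic cells, so that the fusion gene, the loss of Cdkn2a and the red marker arise only where Cre has acted, whereas TCP mice carry Tek-Cre in place of Myf6-Cre. Live cells were sorted from digested tumors with DAPI, and the labels name no gate on tdTomato for these libraries, so other cells of the tumor could have been present. In CUT&RUN a nuclease tethered to an antibody releases the DNA beside the mark, and H3K27ac is a histone acetylation found at active promoters and enhancers. The peak list used here came from 1 library, MCP H3K27ac replicate 5, and neither its MCP counterparts nor any TCP library was analysed here. With 1 library there was no replicate spread and no test between conditions. Each interval below for the fold or fragments of a single peak covers counting error only. A Wilson interval for a share of genes instead treats the genes as random draws.

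The list carried a clear promoter signal at genes that every cell uses, since 10 of 10 housekeeping genes had a promoter peak. Of 12 myogenic genes, which the labelled origin would carry, 1 had a promoter peak, Myf6, and 3 had any peak in the gene or at its promoter, against 45.5% and 53.8% of all protein-coding genes. No promoter peak was listed at 12 chondrocyte genes, 8 neuronal progenitor genes or 8 endothelial genes, and 1 of 6 immune genes had one, Cd68. Any peak in the gene or at its promoter was listed at 1 of these chondrocyte genes and 0 of the neuronal progenitor genes. The same was so for 4 of the 8 endothelial genes and 1 of the 6 immune genes. Fragment numbers were recovered from the fold enrichment and the p of each peak, and the median peak of the list held 13 fragments at its summit, with a lowest number of 7. At this depth a weak promoter would not be called, so an unlisted promoter was not shown to lack acetylation. In a library made from many sorted cells together, fewer cells with the mark and less of the mark in each cell cannot be told apart.

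The sequences of the peaks on which the results turn are shown first. They are the 300 bp around the summit of the strongest gene-body or flank peak of SoxD and of SoxE, and of the strongest promoter peak of Sox5 and of Sox9 whose window held no untranslated exon. All are given on the plus strand of mm10, and capitals mark the motifs that were searched on both strands. These motifs were the SOX core ACAANG, the E-box CAGCTG bound by myogenic factors, the AP-1 site TGANTCA, the forkhead site GTAAACA, the paired domain core GTCACGC and the paired homeodomain palindrome.
Sox5 upstream peak, chr6:144660738-144661037: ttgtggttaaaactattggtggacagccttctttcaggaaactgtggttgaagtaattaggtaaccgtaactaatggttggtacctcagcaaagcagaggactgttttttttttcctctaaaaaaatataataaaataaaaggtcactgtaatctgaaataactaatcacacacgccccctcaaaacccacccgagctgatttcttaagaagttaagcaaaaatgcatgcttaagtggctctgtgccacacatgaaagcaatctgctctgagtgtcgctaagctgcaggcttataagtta
Peak beside Sox10, in Micall1, chr15:79131678-79131977: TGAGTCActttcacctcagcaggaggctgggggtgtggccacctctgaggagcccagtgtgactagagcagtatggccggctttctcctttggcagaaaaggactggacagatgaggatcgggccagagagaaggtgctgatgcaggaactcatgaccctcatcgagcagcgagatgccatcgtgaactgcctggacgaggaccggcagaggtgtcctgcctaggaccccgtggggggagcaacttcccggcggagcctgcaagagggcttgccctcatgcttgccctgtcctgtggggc
Sox5 promoter peak, chr6:143948465-143948764: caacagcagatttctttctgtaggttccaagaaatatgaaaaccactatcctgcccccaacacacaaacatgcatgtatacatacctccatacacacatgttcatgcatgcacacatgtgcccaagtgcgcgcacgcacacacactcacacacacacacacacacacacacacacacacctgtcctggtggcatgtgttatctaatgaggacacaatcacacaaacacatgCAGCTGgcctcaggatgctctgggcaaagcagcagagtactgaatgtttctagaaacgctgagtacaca
Sox9 promoter peak, chr11:112784079-112784378: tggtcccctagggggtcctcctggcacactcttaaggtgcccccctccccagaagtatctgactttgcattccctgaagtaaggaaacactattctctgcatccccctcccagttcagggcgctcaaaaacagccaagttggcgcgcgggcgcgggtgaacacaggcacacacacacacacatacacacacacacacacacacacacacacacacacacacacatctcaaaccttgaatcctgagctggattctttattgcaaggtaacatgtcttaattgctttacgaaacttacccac
The strongest Sox5 window held none of the 6 motifs, nor did the Sox9 window. The Sox10 window held 1 AP-1 site and the Sox5 promoter window 1 E-box. The Sox5 promoter window and the Sox9 window also ran through long stretches of alternating C and A. A repeat of at least 10 such units was searched after these sequences had been read. It was in 10 of the 218 member windows (4.59%), among them 3 of the 10 promoter windows. Its share was 7.57% of windows placed 5 kb from the same summits and 3.92% of all windows of the list.

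The RefSeq promoter table held entries for 6 of the 8 genes, with 11 entries in all and none for Sox9 or Sox10. A peak overlapped 1 of the 11, at the inner start site of Sox5. Its part outside untranslated exons is given on the minus strand, the strand of the gene, because a peak of 7.80-fold with 17 fragments lay wholly within it. The single stretch in capitals is a SOX core.
Sox5 inner promoter, chr6:143947160-143947356: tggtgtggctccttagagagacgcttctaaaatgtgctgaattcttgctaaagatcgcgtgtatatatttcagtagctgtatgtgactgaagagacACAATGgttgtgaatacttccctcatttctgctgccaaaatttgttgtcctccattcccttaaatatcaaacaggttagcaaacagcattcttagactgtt

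Among the 218 windows of the members, 53.7% held a SOX core, against 50.3% of all 122375 windows and 41.2% of the 32851 RefSeq promoters of the same length. An E-box was in 17.4% of the member windows and 14.6% of all windows, and in 16.3% of the promoters. The AP-1 site was in 13.8% of member windows and 14.3% of all windows, against 7.81% of promoters. The forkhead site was in 5 member windows (2.29%) and in 4.92% of all windows, and the paired domain core and the paired homeodomain palindrome were in 2 member windows each (0.917%), against 0.856% and 0.663% of all windows. The promoters held these last 3 motifs at 3.65%, 2.09% and 0.487%. The forkhead share of the members was the lowest relative to that of the list, and no test was made of these shares. A match is a description of the letters only.

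Promoter acetylation was listed at 2 of the 8 genes, Sox5 and Sox9. This was 25.0% of the members (95% Wilson interval 7.15 to 59.1%), against 45.5% of all protein-coding genes. The latter share lay inside the interval, but the 8 genes were chosen by name and are not random draws, so this is no test. A gene-body peak was listed at 3 members, Sox4, Sox5 and Sox9 (all genes 33.2%), and any peak in the gene or at its promoter at the same 3 genes (all genes 53.8%). Flank peaks were listed at 7 members (all genes 82.0%), and Sox9 was the member without one. The 218 peaks comprised 10 promoter peaks, 109 gene-body peaks and 99 flank peaks, and Sox5 held 120 of them (55.0%).

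**Figure D1:**
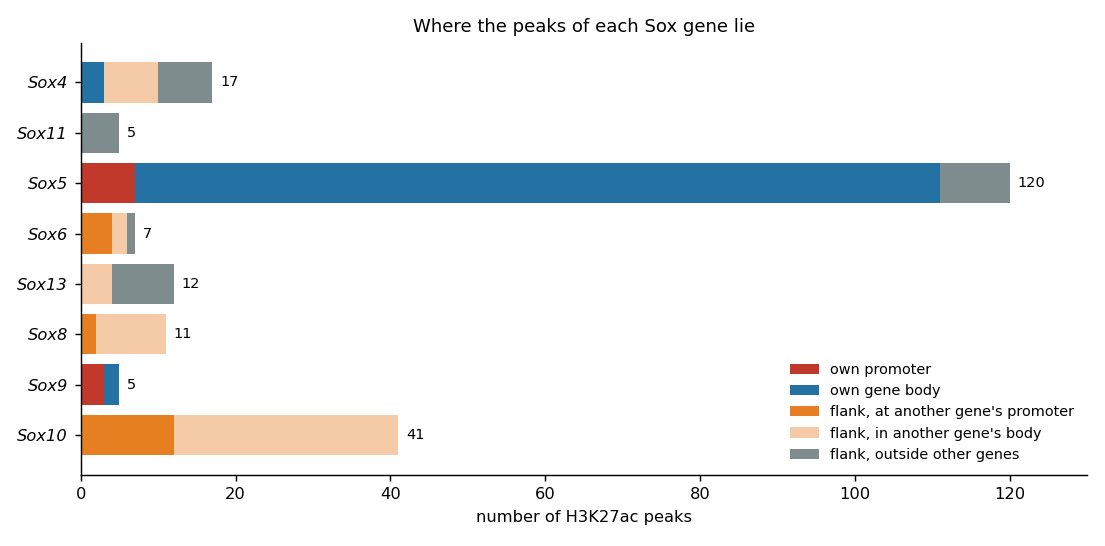
Number of H3K27ac peaks around each Sox gene (x axis), divided by where the peak lay: at the own promoter, in the own gene body, or in the flank at another gene's promoter, in another gene's body or outside other genes. Sox5 held 111 of its 120 peaks at its promoters or in its body, whereas all 41 peaks around Sox10 and all 11 around Sox8 lay at or in other genes.

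Most flank peaks lay at or in neighboring genes. Of the 99 flank peaks, 18 overlapped the 2 kb window around a start site of another gene. Of the rest, 51 had the summit in the body of another gene and 30 outside other genes. A member was the gene with the nearest start site for 16 of the 99 flank peaks, of which 5 were at Sox11, 7 at Sox13 and 4 at Sox4. A count over 100 kb on each side therefore described the chromosome around a gene as much as the gene itself. The same division was not made for the flank peaks of all protein-coding genes, so it was not shown to be particular to the members. Which gene a flank peak acts on was not tested.

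The 2 SoxC genes had no promoter peak. Sox4, which takes part in progenitor growth and in lymphocyte and heart development, is a single-exon gene at chr13:28948919-28953699 on the minus strand, and 17 peaks lay around it. Its 3 gene-body peaks all fell in the 3' UTR, at 2.15, 3.34 and 4.28 kb from the start site, with fold enrichments of 7.37, 6.51 and 5.22 and 16, 20 and 11 fragments. The peak nearest the start site was the highest, but the counting intervals overlapped, at 4.42 to 11.7, 4.11 to 9.86 and 2.85 to 8.96. The nearest of them ended 85 bp outside the 2 kb window, so the lack of a promoter peak at Sox4 rested on the width of that window. A predicted long noncoding RNA on the same strand, Gm46405, runs across the whole Sox4 gene, and peaks of both cannot be told apart.

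Of the 14 flank peaks of Sox4, 13 lay downstream and 1 upstream, the latter 4.93 kb from the start site with 5.13-fold and 11 fragments. The strongest flank peak was 9.96-fold with 22 fragments (6.42 to 14.8), 79.8 kb from the start site, and stood with 5 others in the long noncoding RNA gene 2610307P16Rik. The next was 9.09-fold with 30 fragments (6.24 to 12.8), was 909 bp wide and lay 22.1 kb from the start site, outside other genes and with Sox4 as the nearest start. Both intervals overlapped, so the order of these peaks was not resolved.

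Sox11, a SoxC gene of neuronal progenitors, lies at chr12:27334268-27342718 on the minus strand and had fewer peaks than Sox4 within the gene and its 100 kb flanks. All 5 of its peaks were flank peaks 32.3 to 49.0 kb upstream, outside other genes, with 9 to 11 fragments and fold enrichments of 3.58 to 4.36, all below the list median of 5.22. A further 14 peaks that had Sox11 as the nearest start lay beyond 100 kb, at 126 to 246 kb, and the highest of these was 8.09-fold with 18 fragments. Counted by nearest start site, Sox11 thus had 19 peaks and Sox4 had 7, against an all-gene median of 1.

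**Figure D2:**
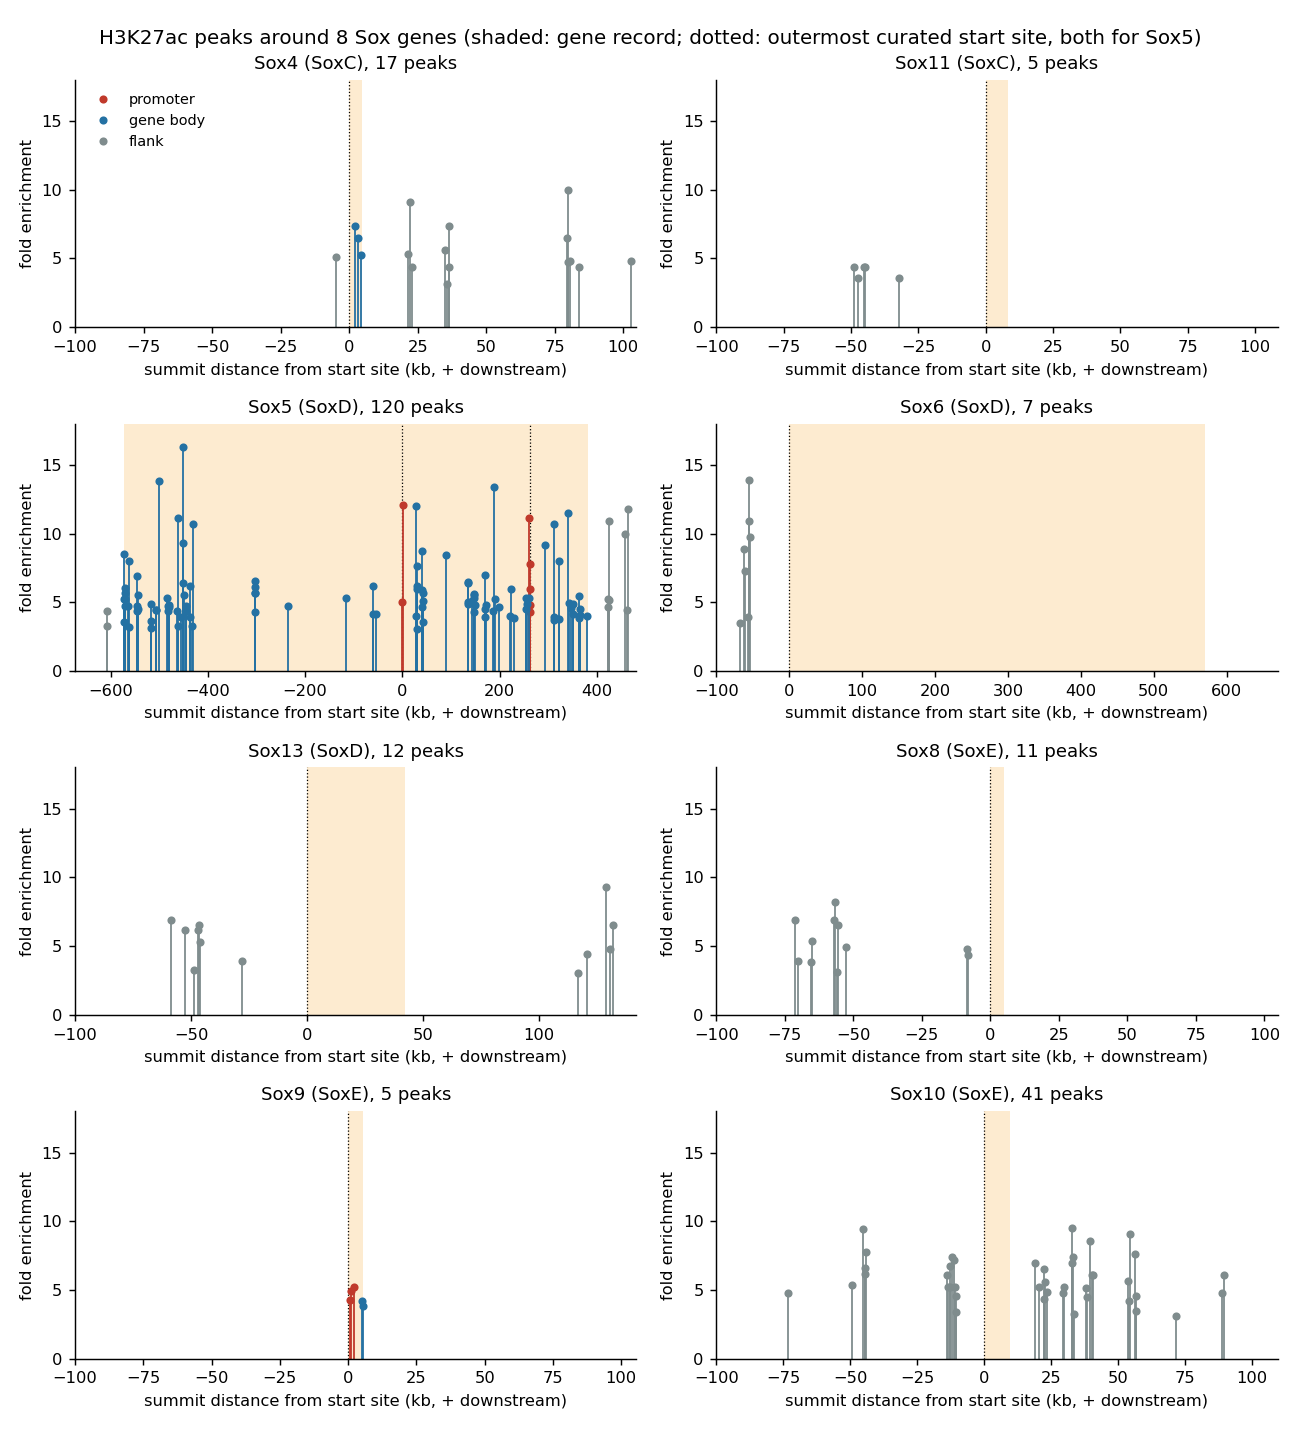
Fold enrichment of each peak (y axis) against the distance of its summit from the outermost curated start site in kb (x axis, positive downstream), for the 8 Sox genes, with promoter, gene-body and flank peaks in red, blue and grey and the gene record shaded. Sox5 was marked along its record, Sox6 had no peak in 570 kb of gene, and the 5 peaks of Sox9 stood alone.

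Sox5 was the member with the most peaks in its gene record. This gene, a SoxD partner of SOX9 in cartilage, has a RefSeq record at chr6:143828425-144782287 on the minus strand, 954 kb long, of which the curated transcripts span 381 kb and predicted transcripts the rest. It had 7 promoter peaks, 104 gene-body peaks and 9 flank peaks. Among the 556 protein-coding genes of 300 kb or longer, the median gene had 6 peaks in its record and Sox5 had 111, a percentile of 97.8. These counts were not divided by the length of the record. Per 100 kb of record Sox5 had 11.6 peaks, against a median of 0.915 and an upper quartile of 14.4 over all protein-coding genes. The short genes Sox9 and Sox4 stood higher by this measure, at 90.1 from 5 peaks and 62.7 from 3 peaks.

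Both curated start sites of Sox5 carried peaks. At the outer one, which begins the long transcripts, a peak of 12.1-fold with 32 fragments (8.41 to 16.9) was 1000 bp wide with its summit 265 bp downstream, and a weaker peak of 5.00-fold with 16 fragments lay 0.271 kb upstream. At the inner one, which begins short transcripts, 5 peaks were listed, with fold enrichments of 11.1, 7.80, 5.94, 4.77 and 4.28. The strongest of the 5 was 1437 bp wide and had 33 fragments (7.77 to 15.5). The intervals of the strongest peak at each start site overlapped, so neither start site stood above the other.

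Along the record, peaks were densest between both curated start sites, with 43 peaks in 262 kb or 16.4 per 100 kb. From the inner start site to the end of the gene there were 17 peaks in 119 kb, or 14.3 per 100 kb. The stretch upstream of the outer start site, covered by predicted transcripts alone, held 51 peaks in 573 kb, or 8.90 per 100 kb, with the strongest peak of all 8 genes among them. That peak was 16.3-fold with 59 fragments (95% interval 44.9 to 76.1 fragments), 943 bp wide, and lay 451 kb upstream of the outer start site in an intron of predicted transcripts, with the antisense RNA gene Sox5os3 as the nearest curated start. In the same stretch stood peaks of 13.8-fold with 31 fragments at 501 kb, of 11.1-fold with 29 fragments at 461 kb, within 2 kb of the Sox5os3 start, and of 10.7-fold with 26 fragments at 431 kb.

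Strong and wide peaks were more frequent at Sox5 than in the list. Of its 120 peaks, 13 reached 10-fold (10.8%, against 4.32% of the list), 8 in the gene body, 2 at promoters and 3 in the downstream flank. Peaks of 1 kb or wider numbered 15 of 120, against 4.74% of the list and 3.06% of the other members' peaks. Over the other 7 genes together, 2 of 98 peaks reached 10-fold (2.04%), both of them beside Sox6. Neighboring peaks of 1 library are not independent, and no test was made of these shares.

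**Figure D3:**
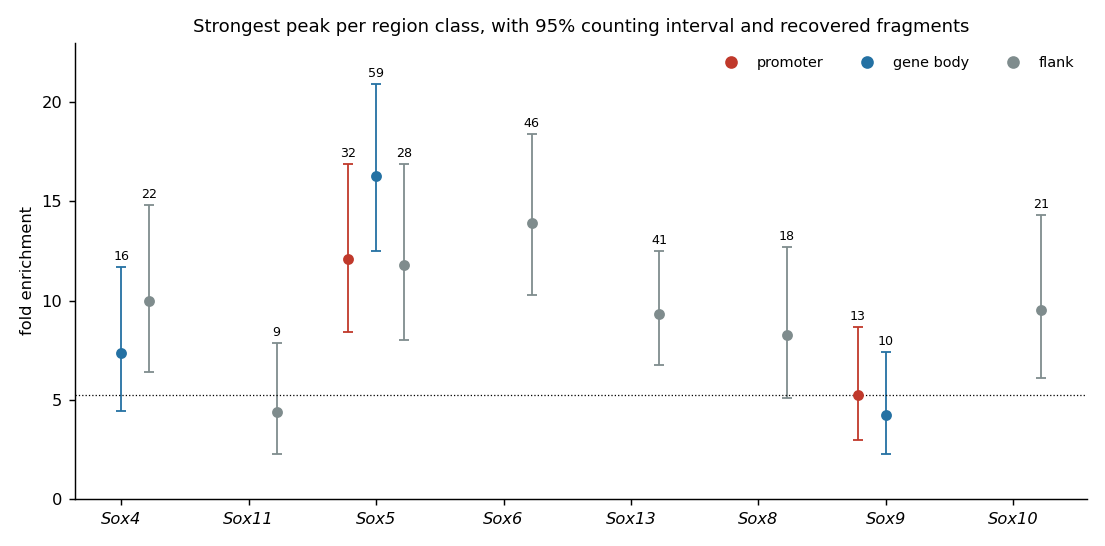
Fold enrichment (y axis) of the strongest promoter, gene-body and flank peak of each Sox gene, with 95% Poisson intervals of the recovered fragments as bars, the number of fragments above each bar and the list median of 5.22 as a dotted line. The strongest Sox5 peak, at 16.3-fold, lay highest, and the strongest peaks of Sox11 and of the Sox9 gene body lay below the dotted line.

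When peaks outside start sites were stitched across gaps as in the ROSE procedure and the clusters ranked by summed fold times width, 864 of 20840 clusters lay above the point where the curve of ranked scores turned. Sox5 was the only member whose gene record a cluster above this limit overlapped (1 of 8, against 4.45% of all protein-coding genes). These shares were not adjusted for the length of the gene records. The cluster spanned 31.8 kb upstream of the outer start site at chr6:144640043-144671802, held 13 peaks with the strongest Sox5 peak among them, and ranked 699. The next Sox5 cluster, 17.7 kb long inside the curated gene, held 12 peaks and ranked 966, below the limit.

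Sox6, the close paralog of Sox5 and a repressor of slow-fiber genes, showed the opposite picture. Its record at chr7:115470872-116040776 on the minus strand is 570 kb long with 6 curated start sites, and no peak was listed in it. This was shared by 156 of the 556 genes of 300 kb or longer (28.1%), among which Sox6 ranked 46 by length. The nearest summit lay 54.3 kb upstream of a start site. All 7 flank peaks lay upstream, and 6 of them stood at or in 1110004F10Rik, whose start region is shared with 1700003G18Rik. The strongest of these was 13.9-fold with 46 fragments (10.3 to 18.4). Of the 6, 4 overlapped a promoter window and 2 had the summit in the body of that neighbor.

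Sox13, a SoxD gene known from lymphocytes, lies at chr1:133382300-133424459 on the minus strand and had 12 flank peaks and none in the gene. Of these, 7 lay 28.1 to 58.6 kb upstream with Sox13 as the nearest start, outside other genes, at 3.28 to 6.90-fold. The strongest of the 7 was 1336 bp wide with 15 fragments (4.07 to 11.1). The other 5 lay downstream, and 4 of them in Plekha6, where the widest peak around any member, 3440 bp, was 9.32-fold with 41 fragments.

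Within SoxE, Sox9 alone carried peaks in the gene or at its promoter. Sox9, the master regulator of cartilage, lies at chr11:112782210-112787757 on the plus strand and had 3 promoter peaks and 2 gene-body peaks. The promoter peaks were 4.28-fold at 0.691 kb in coding sequence, 4.96-fold at 1.09 kb in an intron and 5.23-fold at 2.02 kb in an intron, the last touching the window with its edge only. The gene-body peaks, both in the 3' UTR, were 4.23-fold at 5.02 kb and 3.84-fold at 5.47 kb. All 5 were narrow, at most 155 bp, and held 10 to 13 fragments, so their intervals reached from 2.10 to 8.65 and overlapped throughout. No summit lay on the start site itself, and the nearest other peak was 173 kb away upstream and 187 kb downstream. Of the 5, 4 lay below the list median of 5.22-fold, and under a -log10 q of at least 5 just 1 was left. That peak was the one at 2.02 kb, with a -log10 q of 5.00, whose window ran through the C and A repeat. The promoter peaks at 0.691 and 1.09 kb had a -log10 q of 2.78 and 4.27.

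Sox10, which directs neural crest, Schwann cell and melanocyte genes, lies at chr15:79154913-79164490 on the minus strand. It had 41 flank peaks and no peak in the gene, and the nearest summit was 10.4 kb upstream. The 26 downstream peaks lay at Micall1, 1700088E04Rik, Polr2f and Eif3l, with the strongest, 9.53-fold with 21 fragments (6.08 to 14.3), in Micall1. Of the 15 upstream peaks, 14 lay in the long noncoding RNA gene Gm10863, in a group of 9 within 3.44 kb at 10.4 to 13.7 kb and a group of 5 at 44.2 to 49.5 kb, whose strongest was 9.47-fold with 31 fragments (6.54 to 13.3). No summit had Sox10 as the gene with the nearest start.

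Sox8 lies at chr17:25565893-25570686 on the minus strand and resembled Sox10 in that each of its 11 peaks lay in the upstream flank at or in 1 neighbor, Lmf1. The strongest was 8.24-fold with 18 fragments (5.08 to 12.7) at 56.8 kb, and the nearest, at 8.29 kb, was 4.36-fold with 9 fragments at the Lmf1 promoter. Neither the gene nor the promoter of Sox8 carried a listed peak. The paper names SOX8 among the rhabdomyosarcoma genes with raised RNA in MCP tumors compared with gastrocnemius muscle. RNA was not examined here, and an unlisted promoter was not shown to lack acetylation at this depth.

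Per 100 kb of gene and flanks, Sox10 had the most peaks, 19.6, followed by Sox5 with 10.4, Sox4 with 8.30, Sox8 with 5.37, Sox13 with 4.96, Sox9 with 2.43, Sox11 with 2.40 and Sox6 with 0.909. The median of the 8 was 5.16 and that of all protein-coding genes 6.16, and 3 of the 8 lay above the latter. Among all genes, Sox10 stood at a percentile of 91.2, Sox5 at 69.8 and Sox6 at 19.7. Neighbors in this order such as Sox9 and Sox11, each with 5 peaks, could not be told apart.

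**Figure D4:**
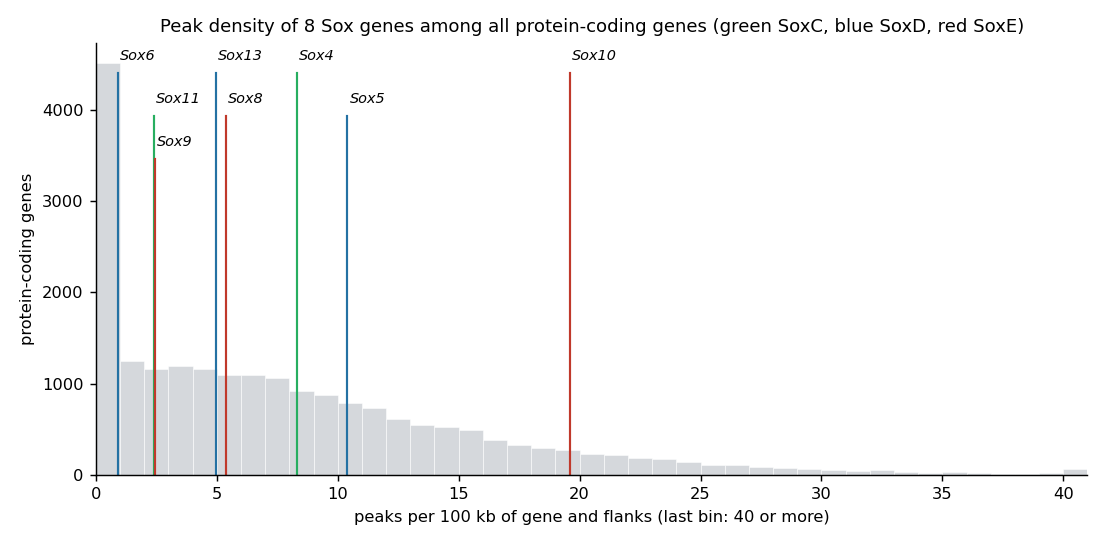
Number of protein-coding genes (y axis) by peaks per 100 kb of gene and flanks (x axis), with the 8 Sox genes as lines, SoxC in green, SoxD in blue and SoxE in red. Sox10 lay in the upper tail at 19.6, and Sox6, Sox11 and Sox9 lay below 2.5.

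Chromosomes differed in peak number and in recovered background. Chromosomes 1, 6, 11 and 15, which carry Sox13, Sox5, Sox9 and Sox10, had 6.07, 5.94, 7.94 and 5.50 peaks per 100 kb, against a median of 4.50 over the autosomes. The median recovered background, a scaled coverage, was 1.12 to 1.33 on chromosomes 1, 11 and 15 and higher still on chromosome 6, against 1.09 in the list. Set against genes of the same chromosome, Sox10 stood at a percentile of 85.9, Sox5 at 59.0, Sox13 at 32.2 and Sox9 at 15.5. On the other chromosomes Sox4 stood at 73.0, Sox8 at 36.9, Sox6 at 29.9 and Sox11 at 24.8, so that Sox9, and not Sox6, was lowest by this measure. The part of the chromosome in the order of the genes was not tested.

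The peaks themselves were ordinary in height. The median fold enrichment of the 218 peaks was 5.17 with quartiles of 4.36 and 6.51, against 5.22 in the list with the same quartiles, and without Sox5 it was 5.23. The median width was 140 bp, against 163 bp in the list. By class, the median was 5.12 at promoters, 4.91 in gene bodies and 5.25 in flanks, with 4.79 for SoxC, 5.07 for SoxD and 5.23 for SoxE. No test was made between the subfamilies. Many peaks were pieces of 1 broader region, and joining peaks less than 1 kb apart left 90 regions of 218 peaks, 46 of them at Sox5, 13 at Sox10 and 2 at Sox9.

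The members were also placed by the CpG content of their start sites. The share of genes with a promoter peak was 3.02% in the lowest decile of genes by CpG number within 500 bp of the start site and 72.3% in the highest. Sox11 with 109 CpG and Sox13 with 106 were in the highest decile, and Sox8 with 75 and Sox9 with 74 in the eighth, where 70.0% of genes had a promoter peak. Of these 4 CpG-rich members 1 had a promoter peak, Sox9, against 71.1% of the 6213 genes in the 3 highest deciles. Sox5, with 20 CpG at its richer start site, was in the fourth decile, as were Sox6 with 32 and Sox10 with 29, where 28.3% of genes had a promoter peak, and Sox4 with 57 was in the sixth, with 65.3%.

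**Figure D5:**
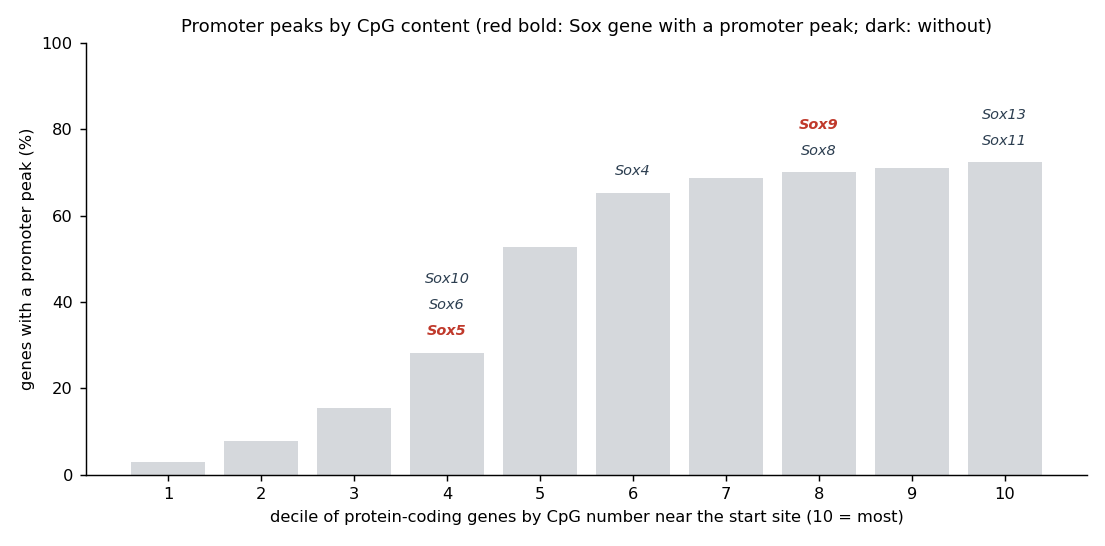
Percentage of protein-coding genes with a promoter peak (y axis) in deciles of genes by the number of CpG within 500 bp of the start site (x axis, from fewest to most), with each Sox gene above its decile in red where it had a promoter peak and dark where it had none. Sox8, Sox11 and Sox13 stood over columns of 70.0 to 72.3% without a promoter peak, and Sox5 had one over a column of 28.3%.

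The other 12 Sox genes, given as counts, had a promoter peak in 3 cases, the same 25.0% as the members (8.89 to 53.2%), against 45.5% of all genes. These were Sox2, the pluripotency and neural progenitor factor, with 2 promoter peaks of up to 6.08-fold, Sox12, the remaining SoxC gene, with 2 of up to 6.40-fold and a gene-body peak of 7.80-fold, and Sox15, a gene of myogenic progenitors, with 7 of up to 7.80-fold. Genes on which SOX factors act were read in the same way. None of the 12 chondrocyte genes, a list that holds targets of SOX9, SOX5 and SOX6, had a promoter peak, against 45.5% of all genes. At this number of genes, 0% allows a share of up to 24.2% by the Wilson interval. Of 13 neural crest, glia and melanocyte genes, a list that holds targets of SOX10, 3 had a promoter peak, Tfap2a, Mitf and Erbb3 (23.1%, 8.18 to 50.3%, against 45.5% of all genes).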

How the data were processed

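The authors called peaks in each H3K27ac library against IgG. Their methods name bowtie, MACS1.4 and a limit on p, and the removal of problematic regions and of an amplified region near Col19a1. The submitters' processing notes instead name BWA, SAMtools, MACS2, mm10 and dm6. No q above 0.0471 was listed, which does not settle the limit that was used. For each peak the deposited file holds a score (10 times -log10 q without its decimals, in 100% of the peaks), a fold enrichment, which is a ratio to local background, a -log10 p, a -log10 q and a summit. These values were used as deposited, to describe and rank peaks. The depth of the library was not given in the sources used here.

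Fragments at each summit were recovered from the fold enrichment and -log10 p with a scale of 0.8845. Within a tolerance of 0.002, 100% of the peaks were solved and 98.7% had 1 solution, and 217 of the 218 member peaks had 1. Such numbers are inferred and are not read counts, and 95% intervals are exact Poisson intervals at a fixed background. The recovery, the region classes and the stitching were tested on simulated data. Genes were taken from RefSeq for GRCm38.p6, the assembly of mm10, with 31601 curated start sites. For the background the start sites of coding transcripts of 21000 protein-coding genes were used. A peak was given to the promoter of another gene when it overlapped the 2 kb window of a start site. It was given to the body of another gene, or to the nearest start site, by its summit.

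All 8 members were named, ordered by subfamily, each with its promoter peaks and its strongest peaks. Stitched clusters in a gene or its 100 kb flanks were described for Sox5 only, and none of those at the other members lay above the limit. The other Sox genes and the marker lists were given as counts with the names of those with a promoter peak, and flank genes were named where they held the strongest or most flank peaks. A gene of the neural crest, glia and melanocyte list and a peak window are not reported here. The members and lists were chosen with earlier results of these data known. Absent peak numbers in the list came to 584 of 122959, with no gap around the 8 genes. Python 3.11.15, numpy 2.4.6, pandas 2.3.3, scipy 1.17.1 and matplotlib 3.10.9 were used.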

Additional observations from a re-analysis of the deposited data

How the results depend on the processing

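Among the strongest 25% of the peaks by -log10 q, 60 peaks lay around the members (27.5% of them, against 25.4% of the list), 1 member had a promoter peak, Sox5 (all genes 29.3%), the median over the genes was 1.56 peaks per 100 kb (all genes 1.43) and the median fold was 8.12 (list 7.80). With a -log10 q of at least 5, 112 peaks were left (51.4%, against 47.9% of the list), with a median over the genes of 2.70 per 100 kb (all genes 2.89) and a median fold of 6.51, equal to that of the list. Sox11 had no peak under either limit. The alternatives without Sox5, with joined peaks, with curated spans and with predicted start sites were chosen after seeing the data. Without Sox5, 98 peaks remained. With peaks less than 1 kb apart joined, there were 90 regions with a median highest fold of 6.17 (list 5.65), and the median over the genes was 3.08 regions per 100 kb, above the all-gene median of 2.78, whereas by single peaks the members lay below it. Spans of curated transcripts gave 169 peaks, and start sites of predicted transcripts gave Sox5 13 promoter peaks. Of 34 alternative values, 23 stayed within 1.5 times the count or within the interval of the median fold. Under each of the 3 other stitching settings Sox5 was the one member in a cluster above the limit. These settings used whole gene records. In the main setting the cluster above the limit lay outside the curated transcripts of Sox5, and the best cluster within them ranked 966, below the limit. No paired analysis was possible because 1 library was used. No replicate could be left out for the same reason.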

Other observations

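A dense stretch of acetylation lay on the far side of the Sox9 gene desert, outside the 100 kb used above, and was noticed after the values had been seen. Between 193 and 503 kb downstream of the Sox9 start site 146 peaks were listed, against 3 peaks within 500 kb upstream. The nearest start belonged to the long noncoding RNA gene 2610035D17Rik for 119 of them, to 1700012H19Rik for 15 and to 4732490B19Rik for 12, and to Sox9 for none. The highest peak was 13.0-fold with 43 fragments at 198 kb, and 4 of the 146 reached 10-fold. Of 5 stitched clusters in the stretch, 2 were above the slope limit, and the larger began 250 kb from Sox9, spanned 184 kb with 122 peaks and ranked 48 of 20840. The recovered background of these peaks, a scaled coverage, had a median of 1.16, against 1.09 in the list. Which gene these regions act on was not tested.

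Alternating C and A repeats of at least 10 units were in 6.37% of windows at peaks of 10-fold or more, in 4.19% at 5 to 10-fold and in 3.41% below 5-fold, and in 3.21% of windows placed 5 kb from the summits.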
